A study of Arabidopsis thaliana with 9 samples.

Results

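The genes nad2, nad4L and ccb382 are 3 protein-coding genes of the Arabidopsis thaliana mitochondrial genome. Each was taken as the probe set that names it alone in the platform annotation (257331_at for nad2, 244902_at for nad4L and 244912_at for ccb382), which gave 3 probe sets of 22746 tested. All 3 genes were listed by name, and each had 1 probe set. They belong to 16 mitochondria-encoded genes that 23 probe sets name one at a time, among 33 protein-coding entries that RefSeq lists for the mitochondrion. The signals came from Affymetrix ATH1 arrays hybridised with total RNA of whole Col-0 seedlings aged 10 days. Seedlings grew in liquid medium with 1% sucrose, about 5 to a well, at 26 °C under a day of 16 h light and 8 h dark. Every group received 1% (v/v) DMSO. The 3 groups were wild type with DMSO alone, wild type with 30 µM hyperphyllin, a small molecule, in DMSO, and the amp1-13 mutant with DMSO alone, with 3 arrays each. The 3 arrays of a group are described as biological replicates. AMP1 encodes a putative glutamate carboxypeptidase, and amp1-13 is a mutant allele of it; the genotype label was not checked on AMP1, which was not analysed here.

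Plant mitochondria keep a small genome that encodes part of the respiratory chain, while most respiratory proteins come from nuclear genes. NAD2 and NAD4L are membrane-arm subunits of complex I, the NADH dehydrogenase that passes electrons from NADH to ubiquinone and pumps protons. The nad2 messenger is assembled by trans-splicing of separately transcribed precursors, and plant mitochondrial messengers undergo C-to-U editing. The gene ccb382, listed by RefSeq as ccmFN1, encodes one part of the CcmF protein, which acts in the attachment of haem to cytochromes of the c type. In Arabidopsis CcmF is split over the genes ccb382, ccb203 and ccb452. In plant mitochondria a poly(A) tail marks an RNA for decay, and the primer used to label the RNA is not given in the sources used here, so a signal is not read as a total amount of messenger.

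In RefSeq's TAIR10.1 annotation the nearest protein-coding neighbours were rps4 and nad6 for the listed segment of nad2, cox3 and atp4 for nad4L, and ccmC and cox3 for ccb382. A stretch of nuclear chromosome 2 carries copies of mitochondrial genes, and 11 further probe sets name a mitochondrial gene together with a chromosome 2 gene. None of the probe sets for nad2, nad4L and ccb382 names a second gene, and 0 of the 3 carry the suffix that marks possible cross-hybridisation, against 5 of the 23 that name mitochondrial genes one at a time. Probe sequences were not compared with the chromosome 2 copies, so signal from a nuclear copy cannot be told apart for these 3. Which part of nad2 its probe set covers is not given in the sources used here.

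Values are log2 RMA signals as the authors deposited them. A probe set is called dim where its mean over the 9 arrays lay below 4.39, the 25th percentile of such means over all tested probe sets. The files give no detection call. By that measure nad2 was dim, with a mean of 3.92 at percentile 16.4, and it was dim in each of the 3 group means. The nad4L probe set stood a little above the limit, with a mean of 4.78 at percentile 30.3. The ccb382 probe set was bright, with a mean of 8.43 at percentile 79.4. Signals of different probe sets depend on their probes, so these ranks do not order the amounts of the 3 messengers.

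The nad2 log2 signals were 3.89, 3.43 and 3.48 with wild type and DMSO, 3.84, 3.67 and 3.87 with hyperphyllin, and 4.33, 4.48 and 4.27 in amp1-13. The 3 mutant arrays stood above all 6 wild-type arrays, and the hyperphyllin values lay within the range of the DMSO values. On 8 of the 9 arrays the value was below 4.39, the exception being amp1-13 replicate 2.

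For nad4L the log2 signals were 4.40, 4.73 and 4.70 with DMSO, 4.90, 4.83 and 4.83 with hyperphyllin, and 4.98, 4.73 and 4.92 in amp1-13. All 3 hyperphyllin arrays were above the DMSO arrays by small margins, while the amp1-13 and DMSO values overlapped. The lowest, DMSO replicate 1, was at percentile 24.5 of its own array. Hyperphyllin replicates 2 and 3 held exactly equal values for nad4L, as they did for 670 probe sets (2.95%), and equal values between pairs of arrays numbered from 328 to 670 over the 36 pairs.

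The ccb382 log2 signals were 8.13, 8.05 and 8.03 with DMSO, 8.71, 8.35 and 8.51 with hyperphyllin, and 8.53, 8.86 and 8.66 in amp1-13. The DMSO arrays were the lowest 3 and lay close together, and neither of the other groups overlapped them. The hyperphyllin and amp1-13 values overlapped each other.

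**Figure D1:**
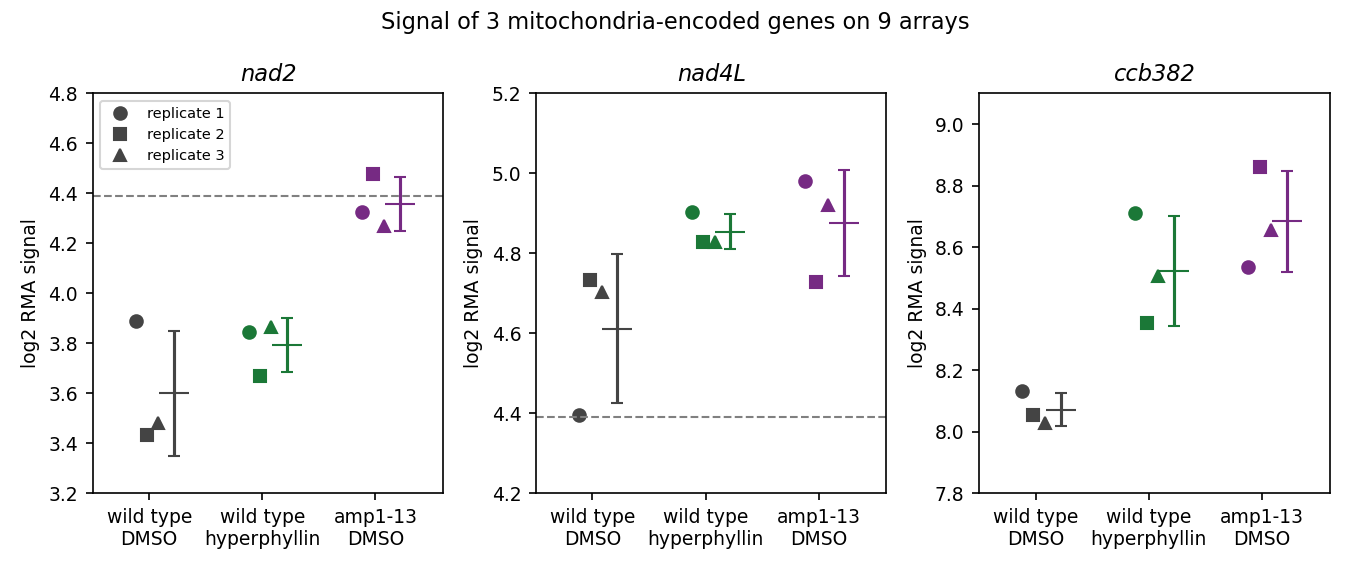
Log2 RMA signal (vertical axis, with its own range in each panel and not starting at 0) of nad2, nad4L and ccb382 in the 3 groups (horizontal axis). Symbols are single arrays by replicate number, the horizontal mark with its bar is the mean with the SD (n = 3), and the dashed line is the limit for dim probe sets at 4.39, which lies below the range of the ccb382 panel. The amp1-13 arrays stand above all wild-type arrays for nad2, and the DMSO arrays stand below all others for ccb382.

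The amp1-13 arrays against the wild-type DMSO arrays ask what the mutation changes. Both nad2 and ccb382 rose in the mutant. For nad2 the group means were 3.60 ± 0.25 (SD, n = 3) with wild type and 4.36 ± 0.11 (SD, n = 3) with amp1-13, a rise of 1.69-fold (95% interval 1.38 to 2.07; limma adjusted p = 0.00464). Because both means were dim, the size of that fold is uncertain. For ccb382 the means were 8.07 ± 0.05 (SD, n = 3) and 8.68 ± 0.16 (SD, n = 3), a rise of 1.53-fold (95% interval 1.27 to 1.83; limma adjusted p = 0.00699). All 5 measured leaf markers were called higher in amp1-13 too.

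The nad4L gene was not called in the mutant. Its means were 4.61 ± 0.19 (SD, n = 3) with wild type and 4.88 ± 0.13 (SD, n = 3) with amp1-13, a log2 difference of 0.26 ± 0.11 (SE; 95% interval 0.01 to 0.52; limma adjusted p = 0.122). With wild-type DMSO replicate 1 left out it was 0.16 (limma adjusted p = 0.342). So 2 of the 3 genes were called, both higher. The genes were chosen with earlier results of these data known, so that share is no test of them as a set. Among all 22746 probe sets 22.5% were called in either direction, 10.1% as higher, and 35.3% had groups that did not overlap. Among the 5687 dim probe sets 49 were called higher in amp1-13, or 0.862%, and nad2 was one of them. The calls of nad2 and ccb382 held in each of the 15 and 17 alternatives that could be run, with adjusted p values of at most 0.0246 and 0.0325.

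Hyperphyllin against DMSO in wild-type seedlings asks what the compound changes. Of the 3 genes, ccb382 alone was called. It rose 1.37-fold, from 8.07 ± 0.05 to 8.52 ± 0.18 (SD, n = 3 each; 95% interval of the fold 1.14 to 1.64; limma adjusted p = 0.0186). With the compound 28.9% of all probe sets were called and 13.3% were called higher. A single call among 3 chosen genes is too few to be placed near or above those shares. Of the 5 measured leaf markers 4 were also called higher. The call rests on single arrays: with wild-type DMSO replicate 3 left out the log2 difference was 0.43 (limma adjusted p = 0.0662), and with wild-type hyperphyllin replicate 1 left out it was 0.36 (limma adjusted p = 0.068). Among dim probe sets 1.48% were called higher with the compound.

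The nad2 signal did not pass the test with hyperphyllin. Its mean was 3.79 ± 0.11 (SD, n = 3) with the compound, a log2 difference of 0.19 ± 0.13 (SE; 95% interval -0.10 to 0.49; limma adjusted p = 0.315). That difference depends on the DMSO arrays. Without replicate 1, which stood above all the hyperphyllin arrays, the log2 difference was 0.34 (limma adjusted p = 0.0552). Without replicate 2 it was 0.11 (limma adjusted p = 0.575). Nor did nad4L pass, with a mean of 4.85 ± 0.04 (SD, n = 3) and a log2 difference of 0.24 ± 0.11 (SE; 95% interval -0.01 to 0.49; limma adjusted p = 0.14), or 0.13 without wild-type DMSO replicate 1 (limma adjusted p = 0.404). The nad4L arrays did not overlap between the groups, as was true of 39.5% of all probe sets. At 3 arrays a group these intervals leave room for a rise of up to 1.40-fold for nad2 and 1.41-fold for nad4L.

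Setting hyperphyllin-treated wild type against amp1-13 asks whether compound and mutation differ. The nad2 signal was lower with hyperphyllin than in the mutant, by 0.57 ± 0.13 on the log2 scale (-0.57; 95% interval -0.86 to -0.27; limma adjusted p = 0.0338). The 2 groups did not overlap for nad2, as was the case for 26.9% of all probe sets, and 6.33% of all probe sets were called in this comparison, 3.35% as lower. Of the dim probe sets 13 of 5687 were called lower, or 0.229%. The call was lost in 8 of 15 alternatives, which are the replicate block and leaving out any 1 of 7 arrays, with an adjusted p of up to 0.153 without amp1-13 replicate 2. It held only without wild-type DMSO replicate 1 or 2 among the 9 arrays left out in turn (limma adjusted p = 0.0134 and 0.0223).

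Neither ccb382 nor nad4L was called in that comparison. For ccb382 the log2 difference was -0.16 ± 0.12 (SE; 95% interval -0.42 to 0.10; limma adjusted p = 0.56). For nad4L it was -0.02 ± 0.11 (SE; 95% interval -0.28 to 0.23; limma adjusted p = 0.962). These intervals do not show that compound and mutation act alike on either gene. Since both effects share the DMSO arrays, their values are given side by side with no measure of likeness.

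In order of group mean, nad2 ran from DMSO through hyperphyllin to amp1-13, and the neighbours DMSO and hyperphyllin did not pass the test. The order was the same for ccb382, where hyperphyllin and amp1-13 did not pass the test. It was also the same for nad4L, where no pair of neighbours passed, although the hyperphyllin arrays stood above the DMSO arrays. The moderated F test over the 3 groups gave limma adjusted p values of 0.00566 for nad2, 0.163 for nad4L and 0.00908 for ccb382, in a table where 30.2% of probe sets passed.

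**Figure D2:**
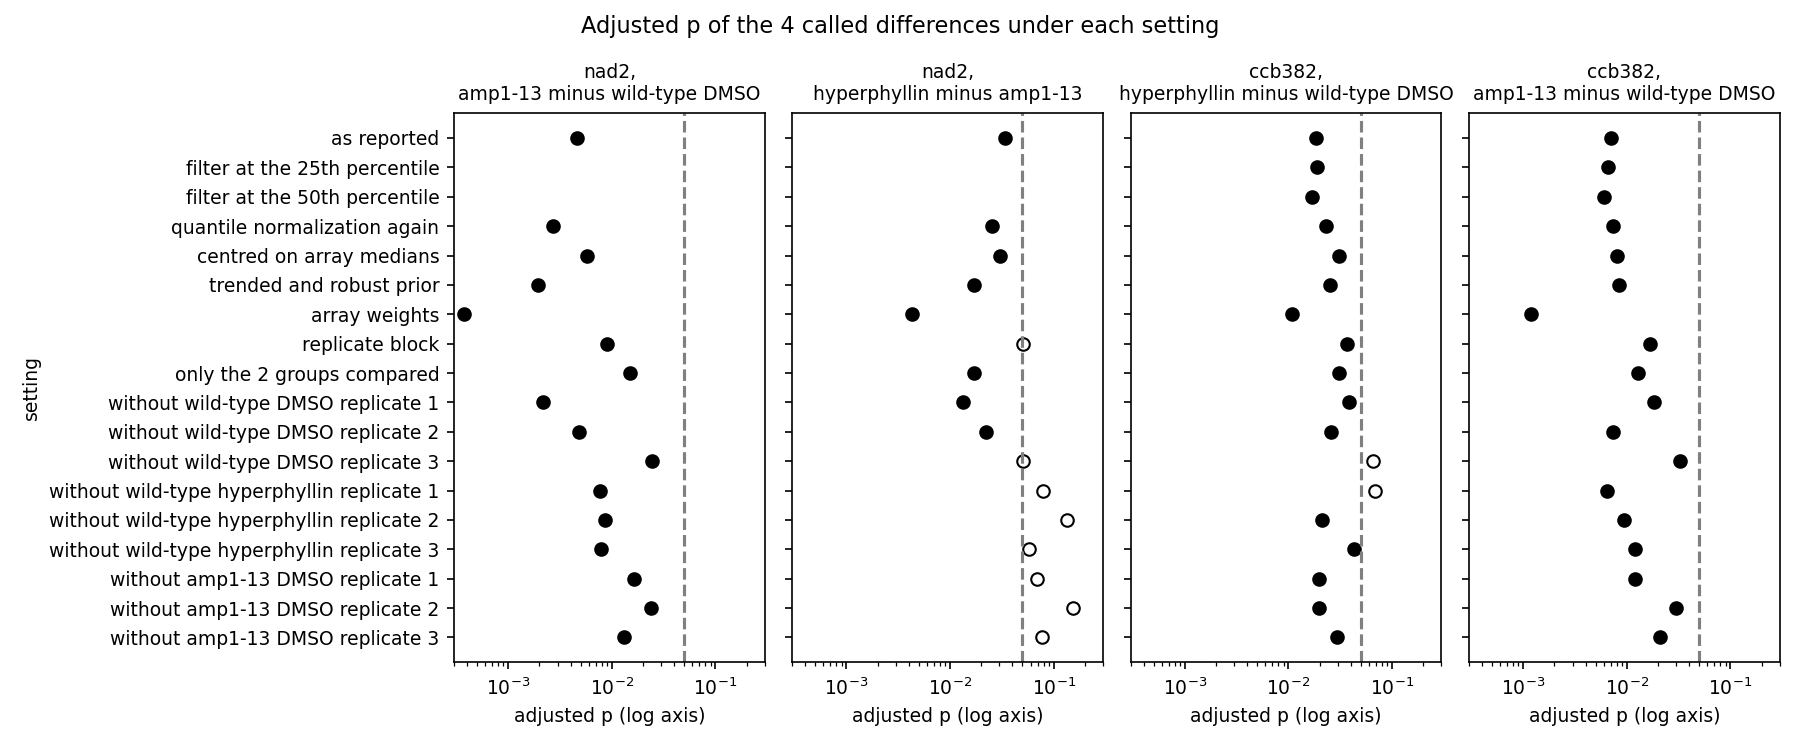
Adjusted p (horizontal, log axis) of the 4 called differences of nad2 and ccb382 as reported and under each alternative setting (vertical axis). Filled symbols are below 0.05 (dashed line) and open symbols above it; nad2 has no value under the filters, which remove it. Both amp1-13 differences stay filled throughout, nad2 between hyperphyllin and amp1-13 turns open 8 times, and ccb382 with hyperphyllin turns open without wild-type DMSO replicate 3 or hyperphyllin replicate 1.

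The other mitochondria-encoded genes give the setting for these values. Because nad2, nad4L and ccb382 were chosen with earlier results of these data known, calls that fall only on them can follow from that choice. The same holds within complex I and cytochrome c maturation below. Where several probe sets name a gene, the brightest stands for it here. Of the 13 genes other than nad2, nad4L and ccb382, none passed the limma threshold in any of the 3 comparisons; at an unadjusted p under 0.05 there were 2 with hyperphyllin, 1 in amp1-13 and 2 between hyperphyllin and amp1-13. With array weights, limma called nad1, nad5, matR and cox1 in 1 comparison each. Over all 13 genes, as first fitted, the median log2 difference was -0.05 with hyperphyllin and 0.11 in amp1-13. In amp1-13 11 of the 13 differences were above 0. The medians over all probe sets were -0.03 and -0.03. By the mean over the 9 arrays 5 of these 13 genes were dim. The brightest was nad4, of complex I, with a mean of 7.56, and the dimmest was matR, a maturase gene, with a mean of 3.64. Only the probe sets of nad4, cox1 and ccb382 among the 16 genes were above the 50th percentile of mean signal.

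Within complex I, 8 mitochondrial genes were measured and nad2 was the 1 called in amp1-13. The median log2 difference of the 8 was 0.14 in amp1-13 and 0.07 with hyperphyllin. The nad1 gene, another trans-spliced complex I gene, was read by 7 probe sets whose log2 differences ranged from -0.08 to 0.15 in amp1-13 and from -0.19 to 0.08 with hyperphyllin, and none was called. The nad5 probe set that stood for its gene had a log2 difference of 0.22 ± 0.08 (SE) with hyperphyllin (limma adjusted p = 0.0706), and it carries the cross-hybridisation suffix.

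Within cytochrome c maturation, 4 mitochondrial genes were measured, and ccb382 was the 1 called. Neither of the other parts of CcmF passed the test. For ccb203 the log2 differences were -0.13 with hyperphyllin (limma adjusted p = 0.254) and -0.07 in amp1-13 (limma adjusted p = 0.579). The ccb452 differences were -0.27 with hyperphyllin (limma adjusted p = 0.083) and 0.03 in amp1-13 (limma adjusted p = 0.866), from a probe set with that suffix. The fourth gene, ccb206, whose product is a membrane part of the haem transporter, was dim, with differences of -0.05 and 0.09. Whether ccb382 differed from these genes was not tested.

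**Figure D3:**
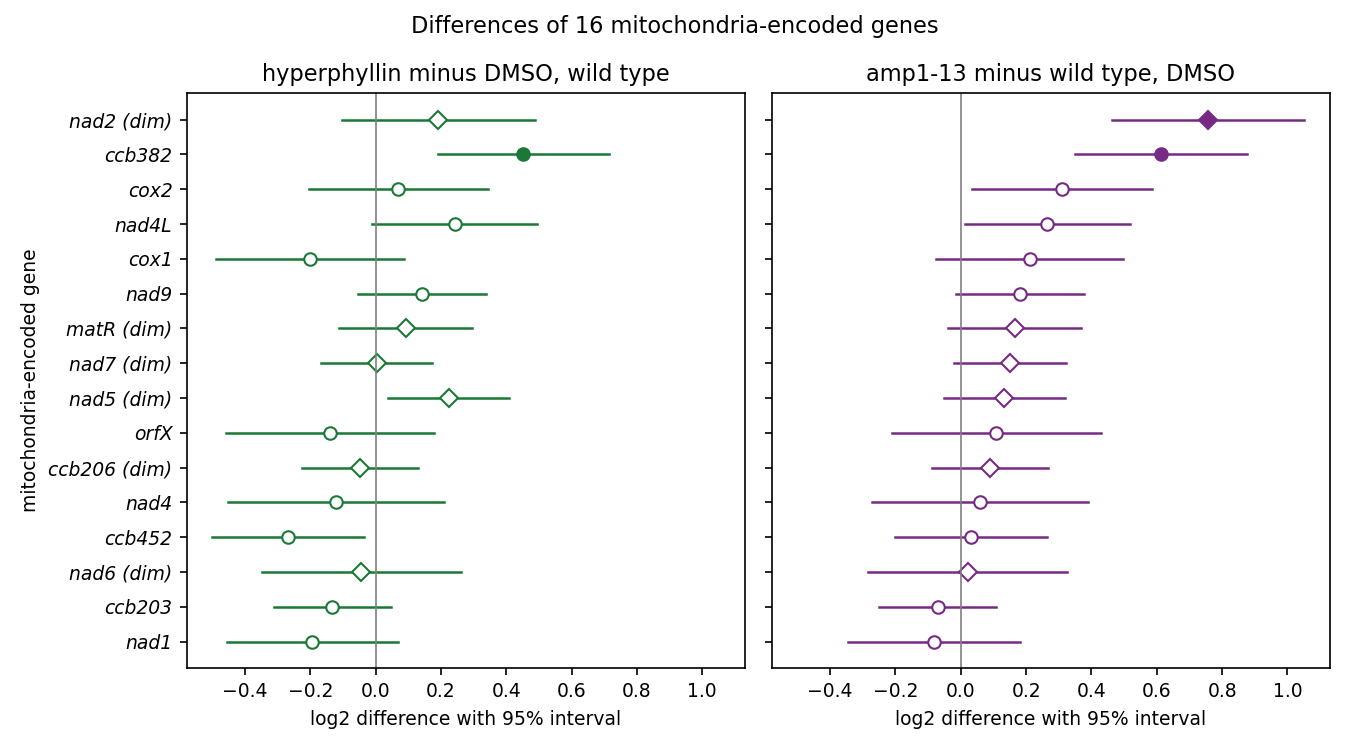
Log2 difference with its 95% interval (horizontal axis) for the 16 mitochondria-encoded genes (vertical axis), with hyperphyllin (left) and in amp1-13 (right). Diamonds are dim genes, and filled symbols passed an adjusted p of 0.05. In amp1-13 nad2 (0.76) and ccb382 (0.61) are filled, and with hyperphyllin ccb382 (0.45) is.

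**Figure D4:**
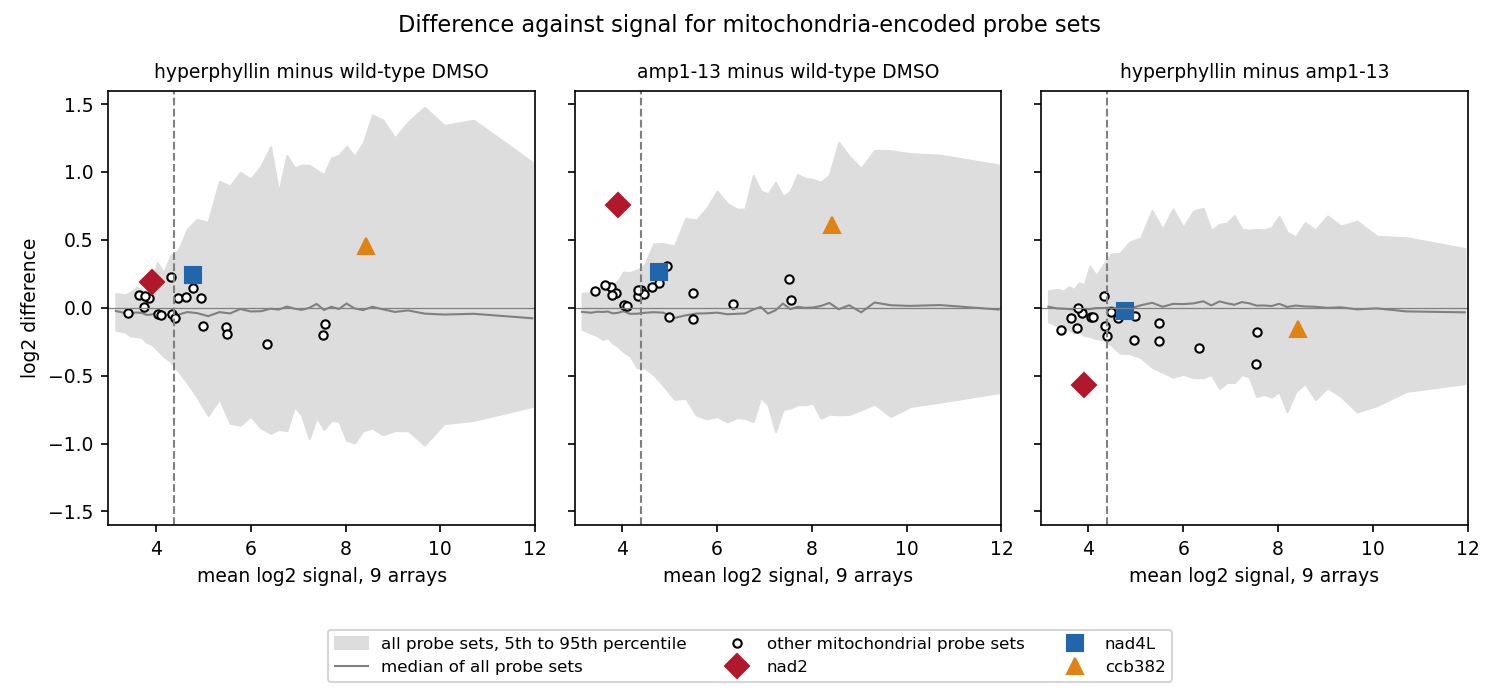
Log2 difference (vertical axis) against mean log2 signal over the 9 arrays (horizontal axis) for the 23 mitochondrial probe sets in the 3 comparisons. The grey band holds the 5th to 95th percentile of all probe sets in bins of signal, and the dashed line marks the limit for dim probe sets at 4.39. In amp1-13 nad2 (0.76) stands above the band at its signal, while ccb382 (0.61) and nad4L (0.26) lie inside it at theirs. With hyperphyllin nad2 (0.19) was not called but lies just above the band, whose upper edge there is 0.18. Between hyperphyllin and amp1-13 nad2 (-0.57) lies below the band, whose lower edge there is -0.20.

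The 11 probe sets that name a mitochondrial gene and a chromosome 2 gene cannot be assigned to either. Among them the set for cob, cytochrome b of complex III, rose 1.55-fold with hyperphyllin (limma adjusted p = 0.0124) and 1.45-fold in amp1-13 (limma adjusted p = 0.0305). The amp1-13 call of cob was lost in 4 of 16 alternatives, which are the fit to 2 groups and leaving out any 1 of the 3 amp1-13 arrays (limma adjusted p up to 0.0917), and its log2 difference went from 0.53 to 0.34 without wild-type DMSO replicate 3. The set for atp9, an ATP synthase subunit, was lower with hyperphyllin by 0.93 on the log2 scale (-0.93; limma adjusted p = 0.00537). The sets for rps4 and rpl5, ribosomal protein genes, were called higher in amp1-13 with limma adjusted p values of 0.0476 and 0.0443, calls that were lost in 14 and 9 of 16 alternatives.

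The plastid NDH complex is related to complex I, and its subunits NdhB and NdhE are the counterparts of NAD2 and NAD4L. The ndhB probe set, which names both plastid copies of the gene, had log2 differences of 0.13 with hyperphyllin and 0.15 in amp1-13, and ndhE had 0.07 and 0.37; none passed the test. Of 12 plastid genes listed, 11 for NDH subunits and the plastid cytochrome gene ccsA, 3 were called higher in amp1-13 (ndhH, ndhJ and ndhK) and 1 lower with hyperphyllin (ndhJ). Each of these 4 calls was lost without at least 3 arrays in turn. In ndhJ and ndhK the log2 signal was lower with hyperphyllin than in amp1-13, by 1.02 and 1.09 (-1.02 and -1.09; limma adjusted p = 0.00323 and 0.008). Among all 69 plastid-encoded genes 35 were called higher and 0 lower in amp1-13, 25 higher and 4 lower with hyperphyllin, and 6 lower with hyperphyllin than in amp1-13. Of all probe sets 10.1% were called higher in amp1-13, 13.3% higher and 15.6% lower with hyperphyllin, and 3.35% lower with hyperphyllin than in amp1-13. In amp1-13 and with hyperphyllin the plastid genes had median log2 differences of 0.63 and 0.39, against 0.14 and -0.02 over the 16 mitochondrial genes.

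Few nuclear genes of respiration on the lists had a probe set naming 1 gene. Neither of 2 genes listed for complex I (FRO1, for a subunit, and GLDH, for an assembly factor) was called in any comparison. The same held for 2 RNA processing genes (OTP43 and OTP87). Of 3 genes for cytochrome c and its maturation, CYTC-1, a cytochrome c gene, was called lower with hyperphyllin (-0.36; limma adjusted p = 0.0278), a call lost in 6 of 17 alternatives. Of 5 alternative NAD(P)H dehydrogenase genes, NDB4 was called lower with hyperphyllin than in amp1-13 (-0.42; limma adjusted p = 0.0484), a call lost in 10 of 16 alternatives.

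Some array-wide measures moved with the groups. The log2 signal of the 25S ribosomal RNA control ran from 12.18 to 12.71 with DMSO, from 12.58 to 12.73 with hyperphyllin and from 12.76 to 12.91 in amp1-13, so the mutant arrays did not overlap the others, as for nad2. The median over the 16 mitochondrial genes ran from 4.69 to 4.84, from 4.83 to 4.89 and from 4.90 to 4.99 in the same order, and the median over the 69 plastid genes from 8.87 to 9.26, from 9.42 to 9.77 and from 9.67 to 10.25. The 3′ minus 5′ difference of the actin control was 1.82 to 2.75 with DMSO, 1.93 to 2.07 with hyperphyllin and 1.81 to 1.97 in amp1-13. For GAPDH it was 0.12 to 0.39, 0.04 to 0.24 and 0.11 to 0.15 in the same order, and for ubiquitin 0.08 to 0.39, 0.0006 to 0.17 and 0.10 to 0.24. Wild-type DMSO replicate 1 was the highest of all arrays on each control (2.75, 0.39 and 0.39). Leaving out that array moved the nad2 and nad4L differences given above. The part of these measures in the differences of nad2, nad4L and ccb382 was not tested. In RNA from whole seedlings, a change in the number of cells of a type and a change in RNA per cell cannot be told apart.

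Some markers of tissues within the seedling also moved with the groups. Of 9 leaf markers listed 5 were measured, all genes of photosynthesis, and the log2 of their summed signal ran from 13.92 to 14.19 with DMSO, from 14.65 to 14.89 with hyperphyllin and from 14.86 to 14.94 in amp1-13. The DMSO arrays were below all others, as for ccb382. Each of the 5 was called higher in amp1-13, among them RCA, the Rubisco activase, by 0.90 on the log2 scale (limma adjusted p = 0.00159), and 4 of the 5 were called higher with hyperphyllin. Of 6 markers of the guard cell lineage 3 were measured. Their summed signal was 7.61 to 7.95, 7.08 to 7.45 and 7.04 to 7.43 on the log2 scale in the same order. One of them, FMA (FAMA), a regulator of guard cell fate, fell by 0.81 with hyperphyllin (limma adjusted p = 0.0089) and by 0.88 in amp1-13 (limma adjusted p = 0.00831). The remaining markers of that lineage, SPCH and MUTE, were not called and did not share that fall. Their log2 differences were 0.08 and 0.11 with hyperphyllin and -0.04 and 0.33 in amp1-13. Of 11 root markers 2 were measured, the root hair genes EXPA7 and EXPA18, with summed signals of 8.21 to 8.63, 8.38 to 8.84 and 8.36 to 9.101, and neither was called. A marker counts as measured here where a probe set naming 1 gene carries its listed name. No pollen or seed marker on the list had such a probe set, and other probe sets were not searched for them. The part of these tissues in the differences of nad2 and ccb382 was not tested.

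Wild-type DMSO replicate 2 deviated most from its group, with a root mean square deviation of 0.24 against at most 0.19 on any other array. Without it the log2 differences in amp1-13 were 0.67 for nad2 (limma adjusted p = 0.00485) and 0.60 for ccb382 (limma adjusted p = 0.00739), and with hyperphyllin that of ccb382 was 0.44 (limma adjusted p = 0.0257).

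As a description over 9 arrays that fall into 3 groups, the probe sets whose pattern was most like each gene were sought among those naming 1 gene and not dim. For nad2 they were DFR (Pearson r = 0.98), UGT84A3 (r = 0.98) and AT1G57770 (r = 0.97). For ccb382 they were AT5G15510 (r = 0.97), TRXF2 (r = 0.96) and AT5G19940 (r = 0.96), and for nad4L AT1G60200 (r = 0.94), AT3G56050 (r = 0.94) and AT5G03610 (r = 0.93). They were picked as the highest of 9449 candidates for nad2 and 9448 for each of the others, so their size carries no test.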

How the data were processed

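Total RNA of 9 samples was hybridised to 9 arrays, 3 per group, grouped by the sample titles. The submitters' processing notes name RMA for the deposited log2 signals. The sources used here do not give its software, version or probe set definition. That the scale is log2 follows from the range of the values (2.77 to 14.3, with 0 missing). Of 22810 probe sets, 64 controls were left out. Platform annotation named 1 gene for 13513 probe sets and several for 503; 8730 were unnamed here. Mitochondrial genes were matched by symbol or synonym to RefSeq.

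Values were used as deposited and fitted over all 9 arrays with limma 3.58.1 (R 4.3.3), taking 1 mean for each group, with 6 residual and 3.45 prior degrees of freedom. Two-sided p values were adjusted by the Benjamini-Hochberg method over 22746 probe sets, and a call is an adjusted p under 0.05. The number of arrays limits the precision, and 0.1 is the smallest p that permuting 3 against 3 arrays allows. The fit was tested on simulated data. Named were the 3 genes, every called mitochondria-encoded gene with the brightest and dimmest, up to 4 called members of each comparison list, the plastid counterparts of nad2 and nad4L, the other cytochrome c maturation genes and nad5 (these chosen after their values were seen), and the 3 probe sets most like each gene. The genes and lists were chosen with earlier results of these data known; the lists of probe sets naming a chromosome 2 gene and of all plastid genes were added from the annotation. The alternatives tried were a filter on mean signal (25th or 50th percentile), another quantile normalization, centring on array medians, array weights, a prior with trend and robust fit, a block for replicate number, a fit to the 2 groups at hand, and leaving out single arrays.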

Additional observations from a re-analysis of the deposited data

How the results depend on the processing

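Over 841 values of 52 results under the alternatives, 0 called log2 differences changed sign. The counts and F tests among these values have no sign to change. The filters, the trended prior, the replicate block and the fit to 2 groups leave a log2 difference as it is. So does leaving out an array of the group not compared. In those settings the sign was fixed, and only the adjusted p could change. The calls of nad2 and ccb382 in amp1-13 were kept in every alternative run, and no alternative called nad4L in any comparison. The filters remove nad2 and, at the 50th percentile, nad4L, so they gave no value there: the count of mitochondria-encoded genes higher in amp1-13 went from 2 to 1, and that of genes lower with hyperphyllin than in amp1-13 from 1 to 0. By the 50th percentile 2 of the 3 genes count as dim in place of 1. Whether replicate numbers pair the samples cannot be settled with 3 arrays a group. Correlations of same-numbered deviations ran from -0.20 to 0.23, and 4 of 9 arrays correlated best with an array of their own number. With the replicate block, nad2 between hyperphyllin and amp1-13 kept its log2 difference of -0.57 with a limma adjusted p of 0.0511, so that count was 0, and no other call of nad2, nad4L and ccb382 changed. With each array left out, this nad2 difference ran from -0.61 to -0.50 and that of ccb382 with hyperphyllin from 0.36 to 0.54. Mitochondria-encoded genes called with hyperphyllin then numbered from 0 to 1 higher and from 0 to 1 lower (nad1 without wild-type DMSO replicate 2, ccb452 without wild-type hyperphyllin replicate 2), and from 0 to 1 were lower than in amp1-13. Normalization by quantiles again gave 2 higher with hyperphyllin (ccb382 and nad5). Array weights gave 2 higher and 1 lower with hyperphyllin and 2 lower than in amp1-13. They gave 4988 probe sets higher and 5497 lower with hyperphyllin, 4412 and 4951 in amp1-13, and 1735 and 1688 between hyperphyllin and amp1-13. Without single arrays those counts ran from 1921 to 4422 and 1960 to 4447, from 1295 to 3864 and 1250 to 4078, and from 197 to 1094 and 309 to 1133. The causes were not tested.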
